A study of Homo sapiens with 4 samples.

Results

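The genes described here are 9 genes of the epithelial to mesenchymal transition (EMT): the transcription factor genes SNAI1, SNAI2, TWIST1, TWIST2, ZEB1 and ZEB2, the cadherin genes CDH1 and CDH2, and VIM. They were taken by symbol, after matching to GENCODE 29, from a table of raw counts for 58735 genes. The list was chosen by name with the clofazimine result of these same libraries already known. The differences of the 9 genes between the groups are therefore a description, and no p-value is given for them. All 9 passed the filter on low counts, and they are 9 of 16388 genes tested. The 6 further gene lists below were also chosen with earlier results of these data known. Their counts, shares and adjusted p-values describe these libraries and are not independent tests.

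The cells are labelled MHCC97-H, a human hepatocellular carcinoma line, with a WT genotype in every library. They were grown in DMEM with serum and antibiotics. Of the 4 libraries, 2 came from cells given no treatment and 2 from cells kept for 16 h with clofazimine, a riminophenazine antibiotic. The dose is not settled: each treated library carries 40 uM, while the series' design text gives 30 uM. No vehicle is named for the untreated cells. Nothing states that the 2 libraries of a group came from different cultures, so every p-value measures only the spread between these libraries, which may be technical.

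In the epithelial to mesenchymal transition, cells joined into a sheet loosen their contacts and take on a migratory shape. SNAIL, TWIST and ZEB proteins bind short DNA elements called E-boxes and repress epithelial genes such as CDH1, which encodes the adhesion protein E-cadherin. In the textbook course, loss of E-cadherin is joined by a gain of N-cadherin, encoded by CDH2, which is called the cadherin switch, and by a gain of vimentin, an intermediate filament protein encoded by VIM. In liver cancer the programme is known for its link with invasion.

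Total counts lay between 13543437 and 16860578 per library, and levels down to 0.170 to 0.233 CPM (counts scaled to library size, with the trimmed mean of M values, TMM) could be seen at a floor of 3 counts. Epithelial markers were abundant: KRT7, KRT8, KRT18, KRT19, EPCAM and CDH1 summed to 3260 to 3901 CPM. Markers of hepatocytes were not. Of 14 such genes, 7 had 0 counts in all 4 libraries, ALB, AFP and TTR among them. The list summed to 8.39 and 10.9 CPM in the untreated and to 1.48 and 2.23 CPM in the clofazimine libraries. Whether the cells match their label was not tested. The 10 markers of fibroblasts or stellate cells summed to 113 and 117 CPM untreated and to 146 and 125 CPM after clofazimine, mostly COL1A1, with 0 of them at 0 counts in all libraries. Of the 5 tested, COL1A1 rose while COL3A1, DCN and PDGFRB fell (edgeR), at a median log2 fold change of -1.28. The COL1A1 call ended under library totals (0.28) and without untreated replicate 1 (0.42) or 2 (0.43). Those of endothelial cells summed to 25.5 and 32.8 CPM untreated and to 5.98 and 5.77 CPM after clofazimine, mostly PECAM1, with KDR and EMCN at 0. The blood cell list summed to 34.2 and 41.0 against 19.4 and 21.2 CPM, mostly CD14, with PTPRC at 0. In bulk RNA fewer cells of a type and less RNA per cell cannot be told apart, and the part of other cells in the results below was not tested.

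E-boxes bound by SNAIL and ZEB proteins often read CAGGTG, or CACCTG on the other strand. Windows of 300 bases around RefSeq transcription starts (GRCh38.p14, 250 bases before to 50 after) were at hand for 5 of the 9 genes, CDH2, TWIST2, VIM, ZEB1 and ZEB2, in 12 windows. No window is shown for CDH1, SNAI1, SNAI2 and TWIST1. A search for CAGGTG on both strands found it in 20.6% of the 35116 windows searched and, among the 5 genes, only in ZEB1. Of the windows below, the ZEB1 window is the one with the most matches, the VIM window belongs to the one gene of the 5 whose level rose, and the CDH2 window to the cadherin that did not pass the test. Capitals mark CAGGTG or CACCTG, each sequence runs 5′ to 3′ on the gene's strand, and the windows were picked after the matches and levels were known.
ZEB1, chr10:31318966-31319265, plus strand: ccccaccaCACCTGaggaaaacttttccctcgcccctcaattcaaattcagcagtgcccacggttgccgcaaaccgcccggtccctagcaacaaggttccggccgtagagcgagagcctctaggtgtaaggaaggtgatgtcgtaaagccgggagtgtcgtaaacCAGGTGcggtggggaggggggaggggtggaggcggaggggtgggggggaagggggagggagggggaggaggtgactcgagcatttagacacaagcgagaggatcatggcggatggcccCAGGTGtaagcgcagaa
VIM, chr10:17227991-17228290, plus strand: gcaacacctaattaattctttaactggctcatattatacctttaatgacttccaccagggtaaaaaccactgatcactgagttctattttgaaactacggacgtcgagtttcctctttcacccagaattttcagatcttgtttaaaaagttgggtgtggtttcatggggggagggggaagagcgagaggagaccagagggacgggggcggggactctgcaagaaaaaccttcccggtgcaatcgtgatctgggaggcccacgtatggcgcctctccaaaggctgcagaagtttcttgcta
CDH2, chr18:28177081-28177380, minus strand: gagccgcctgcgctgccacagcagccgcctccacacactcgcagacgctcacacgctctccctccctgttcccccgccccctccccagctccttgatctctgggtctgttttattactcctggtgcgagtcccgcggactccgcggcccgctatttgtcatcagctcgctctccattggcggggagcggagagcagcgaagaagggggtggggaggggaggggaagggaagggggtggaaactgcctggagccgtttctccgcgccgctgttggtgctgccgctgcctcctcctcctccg
The ZEB1 window holds 3 matches, and the VIM and CDH2 windows hold 0. A match describes letters and not a bound site, and no match says only that these letters are not in the window.

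After clofazimine, SNAI2 was 29.2-fold higher, SNAI1 and TWIST1 were 2.20-fold and 2.29-fold higher, VIM was 1.81-fold higher, and CDH1 was 2.86-fold lower. TWIST2, ZEB1, ZEB2 and CDH2 did not pass the test. In the fit over all genes (edgeR quasi-likelihood test, adjusted p under 0.05) 4 of the 9 genes were higher and 1 lower, where 29.5% of all genes tested were called higher, 30.4% lower and 59.9% in either direction. The untreated and clofazimine libraries did not overlap for 5 of the 9 genes and for 80.8% of all genes tested. Since the genes were picked with this contrast in view, nothing is read from these counts. Of the cadherin switch, these libraries showed the fall of CDH1 but no clear rise of CDH2. The fitted value of CDH2 was slightly below 0, and it did not pass the test. Its 95% interval of the fold change, 0.653 to 1.26, leaves room for a small rise.

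**Figure D1:**
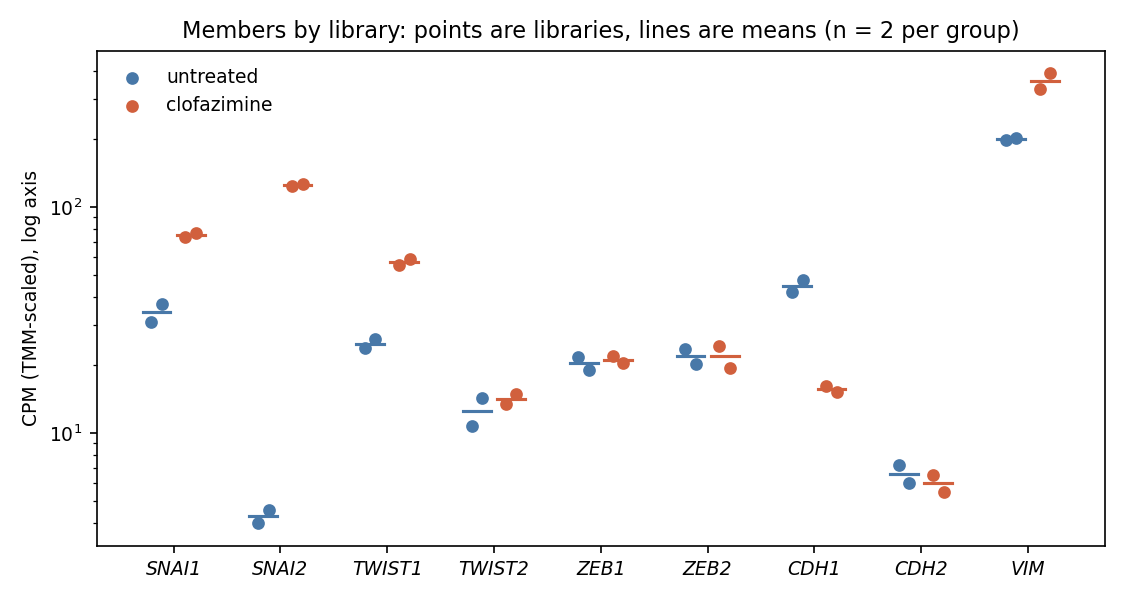
Level of each of the 9 genes in CPM (TMM-scaled, log axis), with a point for each library and a line for the mean of the 2 libraries per group. The groups stand apart for SNAI1, SNAI2, TWIST1, CDH1 and VIM, with SNAI2 at 3.99 and 4.59 CPM untreated against 124 and 126 CPM, and overlap for TWIST2, ZEB1, ZEB2 and CDH2.

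SNAI1 and SNAI2 encode the zinc finger repressors SNAIL and SLUG, which share a binding motif. SNAI2 (ENSG00000019549, chromosome 8, 48917604 to 48921740) had 70 and 81 counts without treatment, and 1598 and 1929 counts with clofazimine. These are levels of 3.99 and 4.59 CPM against 124 and 126 CPM. The replicates of each group lay close together, 0.20 apart on the log2 scale in the untreated and 0.03 in the clofazimine libraries, beside a fitted log2 fold change of 4.87 ± 0.15 (SE, n = 2 per group). SNAI1 (ENSG00000124216, chromosome 20, 49982999 to 49988886) stood at 30.9 and 37.4 CPM untreated and at 73.9 and 76.5 CPM after clofazimine. Its log2 fold change was 1.14 ± 0.13 (SE), against a gap of 0.28 between the untreated replicates. No other annotated gene overlaps SNAI1 or SNAI2.

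The pair changed places in part. In CPM, SNAI2 stood at 0.129 and 0.123 times SNAI1 in the untreated libraries and at 1.68 and 1.65 times SNAI1 in the clofazimine libraries. Per kilobase of exon, which allows levels of different genes to be compared, SNAI2 stood at 0.0642 and 0.0609 times SNAI1 untreated and at 0.835 and 0.822 times SNAI1 after clofazimine. On that scale SNAI1 was the higher of the pair in all 4 libraries. Per kilobase of the longest transcript the ratios were 0.0770 and 0.0731 untreated and 1.002 and 0.985 after clofazimine, so SNAI2 was marginally the higher in clofazimine replicate 1.

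TWIST1 and TWIST2 encode related basic helix-loop-helix factors, which bind E-boxes as dimers. TWIST1 (ENSG00000122691, chromosome 7, 19020991 to 19117672) was at 23.7 and 26.1 CPM in the untreated and at 55.3 and 58.9 CPM in the clofazimine libraries, with a log2 fold change of 1.20 ± 0.13 (SE). Its groups stood apart by more than either pair of replicates. TWIST2 (ENSG00000233608, chromosome 2, 238848032 to 238910543) was at 10.8 and 14.3 CPM untreated and at 13.4 and 14.9 CPM after clofazimine. These groups overlap, and the 95% interval of the fold change from the fit ran from 0.872 to 1.47. Its untreated replicates differed by 0.40 on the log2 scale, the widest gap among the 9 genes.

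ZEB1 and ZEB2 encode large zinc finger and homeodomain repressors, known to be held down by the miR-200 family in epithelial cells. ZEB1 (ENSG00000148516, chromosome 10, 31318495 to 31529814) was at 21.6 and 19.1 CPM untreated and at 21.8 and 20.5 CPM after clofazimine. ZEB2 (ENSG00000169554, chromosome 2, 144364364 to 144524583) was at 23.5 and 20.2 CPM and at 24.3 and 19.3 CPM. The groups of each gene overlap, and the 95% intervals of the fold change ran from 0.837 to 1.29 for ZEB1 and from 0.792 to 1.25 for ZEB2. MIR200CHG, the host gene of miR-200c and miR-141, had 0 counts in all 4 libraries, which says nothing of the mature miRNAs. On the opposite strand, ZEB1-AS1 shares 366 exonic bases with ZEB1 and had 39 and 39 counts untreated and 65 and 63 after clofazimine. Whether reads were assigned by strand is not known, so reads in the shared bases could belong to either gene. The antisense genes that overlap ZEB2, TWIST1, CDH1 and CDH2 had between 0 and 5 counts per library.

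Summed per kilobase of exon, the 6 transcription factor genes stood at 40.3 and 47.0 CPM per kb in the untreated and at 118 and 123 CPM per kb in the clofazimine libraries. The make-up of this sum differed. SNAI2 held 2.92% and 2.88% of it untreated and 30.9% and 30.4% after clofazimine. SNAI1 held 45.5% and 47.2% against 37.0% and 37.0%, and TWIST1 28.9% and 27.3% against 23.0% and 23.6%. The share of TWIST2 was 14.2% and 16.2% against 6.05% and 6.46%, while its own level overlapped between the groups. ZEB1 and ZEB2 together with TWIST2 were thus smaller parts of a larger sum.

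**Figure D2:**
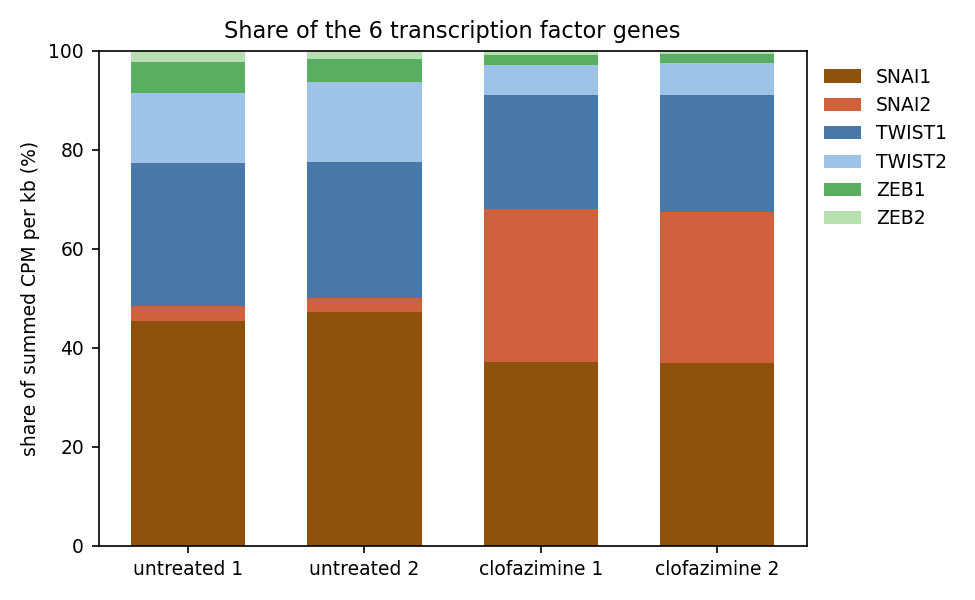
Share of each of the 6 transcription factor genes in their summed level (CPM per kb of exon, percent), by library. The SNAI2 segment covers 2.92% and 2.88% without treatment, and 30.9% and 30.4% with clofazimine.

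CDH1 (ENSG00000039068, chromosome 16, 68737225 to 68835548) had 739 and 836 counts untreated and 207 and 232 after clofazimine, which are 42.2 and 47.3 CPM against 16.1 and 15.2 CPM. The groups stood far apart beside replicate gaps of 0.17 and 0.08 on the log2 scale, and the log2 fold change was -1.52 ± 0.14 (SE). CDH2 (ENSG00000170558, chromosome 18, 27950966 to 28177446) had 127 and 106 counts against 84 and 84, which are 7.25 and 6.0 CPM against 6.53 and 5.51 CPM. Its groups overlap, and the 95% interval of the fold change, 0.653 to 1.26, leaves room for a moderate fall but not for a rise of the size seen for SNAI1. Per kilobase, CDH1 stood at 4.66 and 6.32 times CDH2 in the untreated and at 1.97 and 2.21 times CDH2 in the clofazimine libraries. E-cadherin mRNA thus remained the more abundant of the pair in each library.

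VIM (ENSG00000026025, chromosome 10, 17228259 to 17237593) was the most abundant of the 9 genes, with 198 and 201 CPM untreated and 332 and 391 CPM after clofazimine. Its log2 fold change was 0.86 ± 0.13 (SE), and its clofazimine replicates were 0.24 apart on the log2 scale, more than the 0.02 between the untreated ones. VIM stood per kilobase of exon at 5.64 and 5.09 times CDH1 untreated and at 24.7 and 30.8 times CDH1 after clofazimine. The size of these ratios depends on the length used. With the longest transcript, the level over all 4 libraries was 105 in place of 54.4 CPM per kb for VIM. For CDH1 it was 6.18 in place of 4.89. VIM-AS1 shares 641 exonic bases with VIM on the opposite strand, with 20 and 17 counts untreated and 6 and 12 after clofazimine.

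**Figure D3:**
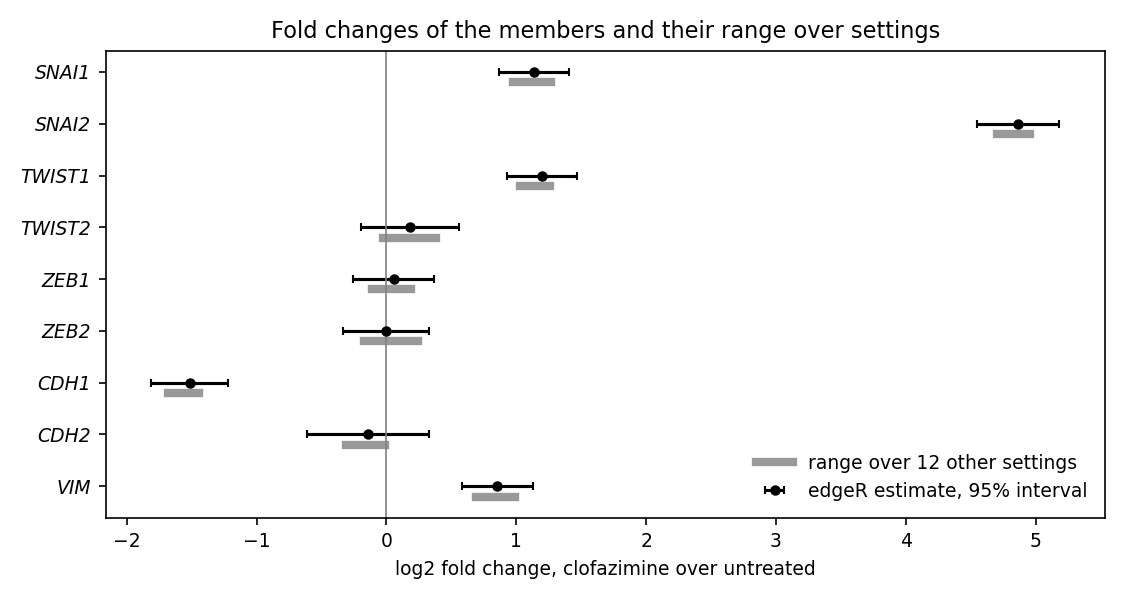
Log2 fold change of each gene, clofazimine over untreated, with the edgeR estimate and its 95% interval (black) and the range over 12 other settings (grey). SNAI2 lies between 4.70 and 4.95 in those settings and CDH1 between -1.68 and -1.45, while the intervals of TWIST2, ZEB1, ZEB2 and CDH2 cover 0.

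In untreated cells the order per kilobase of exon was VIM at 38.7 ± 0.355, SNAI1 at 20.3 ± 2.72, TWIST1 at 12.2 ± 0.842, CDH1 at 7.24 ± 0.591, TWIST2 at 6.67 ± 1.31, ZEB1 at 2.35 ± 0.208, CDH2 at 1.34 ± 0.178, SNAI2 at 1.26 ± 0.123 and ZEB2 at 0.872 ± 0.0930 CPM per kb (mean ± SD, n = 2). The libraries of CDH1 and TWIST2 overlap in this order, as do those of CDH2 and SNAI2. In the clofazimine libraries VIM, at 70.0 ± 8.09, and SNAI1, at 44.6 ± 1.08 CPM per kb, kept their places. SNAI2 came next at 36.9 ± 0.468, followed by TWIST1 at 28.1 ± 1.23 and TWIST2 at 7.54 ± 0.540. CDH1, at 2.53 ± 0.101, overlapped with ZEB1, at 2.44 ± 0.113 CPM per kb, and CDH2 and ZEB2 came last at 1.22 ± 0.146 and 0.871 ± 0.141. Exon length here is the union of all annotated exons. With the longest transcript instead, the level over all 4 libraries was 2.28 in place of 0.872 CPM per kb for ZEB2, above the 1.46 of CDH2.

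Profiles were compared among tested genes only, leaving out symbols with a dot or dash, clone names and LINC names. In that set the profile of SNAI2 over the 4 libraries was most like those of NR1D1, PTX3 and ATF3. The Euclidean distances were 0.439, 0.5003 and 0.652 between centred log2(CPM + 0.5) values. NR1D1, a circadian repressor, was at 25.0 and 27.7 CPM against 560 and 498 CPM, and PTX3, a secreted pattern-recognition protein, at 1.08 and 0.906 against 29.5 and 27.9 CPM. At the untreated level of PTX3 the added 0.5 CPM shrinks its change, so the order of these genes depends on that setting. The fitted log2 fold changes were 4.33 for NR1D1, 4.84 for PTX3 and 4.87 for SNAI2. These distances are larger than those given below for CDH1 and CDH2. CDH1 was most like HECTD3 and TMPRSS3, at distances of 0.0489 and 0.0504. RNA5SP283 followed, at 0.799 and 0.962 CPM untreated and at 0 CPM in both clofazimine libraries. At such low levels the added 0.5 CPM shrinks the change, so its likeness to CDH1 owes much to that setting. HECTD3, a ubiquitin ligase, stood at 65.7 and 73.2 against 24.7 and 24.5 CPM. CDH2 was most like UHRF1BP1, CHAMP1 and SLC31A2, at distances of 0.0191, 0.0196 and 0.0378. SLC31A2 was also low, at 1.03 and 0.736 against 0.855 and 0.656 CPM. Over 4 libraries such a distance is a description only.

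Of the other cadherins, 0 of 9 tested rose and 5 fell (edgeR, adjusted p under 0.05), at a median log2 fold change of -1.63 beside -0.03 over all genes tested. This is 55.6% lower, beside 30.4% of all genes tested, of which 29.5% were higher. A further 14 of the 23 listed were too low to test, 7 of them with 0 counts in all 4 libraries. The lowest fold change was that of CDH23, a cadherin of the inner ear, at 2.57 and 2.89 CPM untreated against 0.622 and 0.721 CPM, a log2 fold change of -2.003 ± 0.40 (SE, adjusted p 4.35e-04). CDH3, which encodes P-cadherin, an epithelial cadherin, was picked out after its values were seen. It lies next to CDH1 on chromosome 16, at 68636189 to 68722616, and fell from 21.3 and 17.9 to 6.06 and 4.72 CPM (-1.87 ± 0.19, edgeR adjusted p 5.74e-07). The most abundant others were CDH13, which encodes a cadherin anchored by a lipid in place of a membrane span, at 90.03 and 99.97 against 99.6 and 84.9 CPM, and CDH24 at 43.7 and 47.7 against 53.4 and 46.9 CPM. The groups of each overlap, and neither passed the test (edgeR adjusted p 0.78 and 0.38). Without untreated replicate 2, 2 of the 9 fell.

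**Figure D4:**
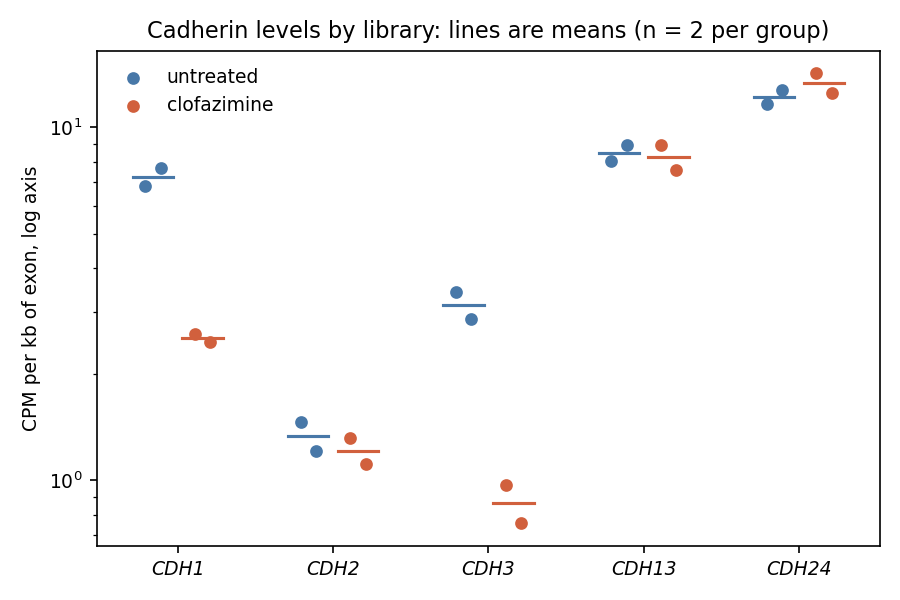
Level of 5 cadherin genes in CPM per kb of exon (log axis), with a point for each library and a line for the mean of 2. CDH1 and CDH3 lie lower in the clofazimine libraries, while CDH2, CDH13 and CDH24 overlap between the groups.

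Among 36 genes of epithelial adhesion and keratins, 32 were tested, of which 3 rose and 10 fell, at a median log2 fold change of -0.14. This is 9.38% higher and 31.2% lower, beside 29.5% and 30.4% of all genes tested. The catenins of the E-cadherin complex divided. CTNND1, which encodes p120 catenin, fell from 193 and 195 to 134 and 117 CPM (-0.63 ± 0.12, edgeR adjusted p 3.41e-04), and CTNNB1, which encodes beta-catenin, rose from 308 and 334 to 464 and 483 CPM (0.56 ± 0.13, adjusted p 0.00122). CTNNA1, which encodes alpha-catenin, was at 552 and 576 against 670 and 650 CPM and did not pass (adjusted p 0.14). Nor did JUP, which encodes plakoglobin, at 244 and 300.2 against 281 and 279 CPM (adjusted p 0.81). These 4 genes were picked out after their values were seen. PATJ, a scaffold of tight junctions, had the highest called change, 0.59 ± 0.12 (adjusted p 4.11e-04), from 51.5 and 49.9 to 78.8 and 73.7 CPM. ST14, a membrane protease, had the lowest, -1.90 ± 0.77, at 0.799 and 0.849 against 0.466 and 0 CPM. It passed the filter only through the untreated libraries, so its fall is a description without a p-value. Its call ended in 5 of 12 other settings, such as without clofazimine replicate 2 (-0.80), while a filter of 1 CPM removed it. KRT7 and KRT8, the most abundant, did not pass, with KRT7 at 1592 and 1453 against 1667 and 1879 CPM and KRT8 at 1106 and 1272 against 1093 and 1239 CPM. KRT8 shares 525 exonic bases with KRT18 on the opposite strand. Under library totals 2 rose and 15 fell, and without untreated replicate 2 the numbers were 2 and 6.

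Mesenchymal genes other than VIM and CDH2 were mostly lower. Of 38 listed, 30 were tested, of which 4 rose and 18 fell, at a median log2 fold change of -0.83. This is 13.3% higher and 60% lower, beside 29.5% and 30.4% of all genes tested. The list holds 8 of the 10 fibroblast or stellate markers and 4 of their 5 tested genes, and the part of such cells in its values was not tested. COL5A1, a fibrillar collagen chain, fell from 1744 and 1861 to 630.2 and 444 CPM (-1.75 ± 0.16, edgeR adjusted p 1.91e-07). FN1, the matrix protein fibronectin and a common marker of the mesenchymal state, fell from 689 and 716 to 269 and 168 CPM (-1.69 ± 0.18, adjusted p 6.36e-07) and was named after its values were seen. SPARC, a matrix glycoprotein, had the lowest value, -4.06 ± 0.52, at 2.62 and 3.57 against 0.155 and 0.197 CPM. SPARC passed the filter only through the untreated libraries, so its fall is a description without a p-value. Its clofazimine values lie below the floor of 0.233 CPM in replicate 1 and at the floor of 0.197 CPM in replicate 2. The size of its fall is therefore uncertain. ITGA5, a receptor chain for fibronectin, was at 885 and 1015 against 931 and 714 CPM, with overlapping groups (adjusted p 0.24). COL1A1, among the 4 that rose, was named after its values were seen (0.44, edgeR). Its call ended under library totals (0.28), and its value was 0.42 without untreated replicate 1 and 0.43 without untreated replicate 2. VIM and COL1A1 thus went up in the libraries in which FN1, COL5A1 and SPARC went down.

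**Figure D5:**
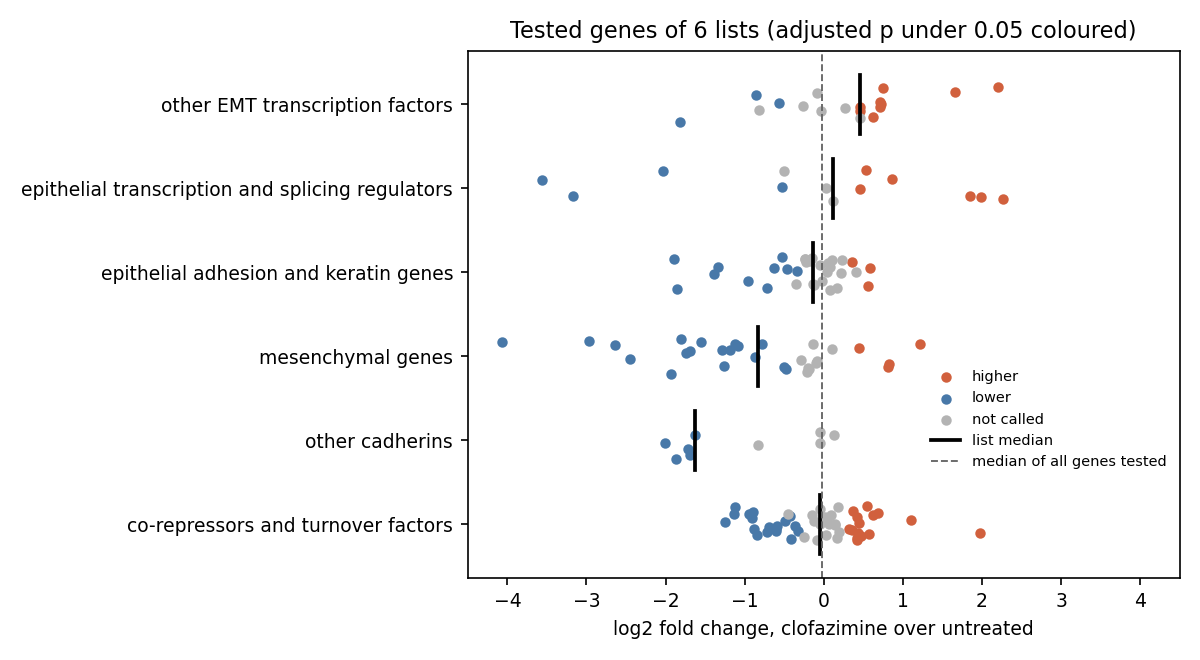
Log2 fold change of each tested gene in 6 lists (points, with jitter), coloured by call, with list medians (black bars) and the median of all genes tested (dashed, -0.03). The mesenchymal median is -0.83 and that of other cadherins -1.63, and GRHL3, at 0 counts in both clofazimine libraries, is drawn at the bound its floor allows.

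Other transcription factors linked to the transition had 18 of 24 genes tested, of which 9 rose and 3 fell, at a median log2 fold change of 0.45. The shares were 50% higher and 16.7% lower, against 29.5% and 30.4% over all genes tested. FOXC2, a forkhead factor, rose from 4.91 and 3.57 to 21.7 and 17.3 CPM (2.20 ± 0.21, edgeR adjusted p 2.01e-07). YBX1, a nucleic acid binding protein and the most abundant of the list, rose from 842 and 880 to 1332 and 1481 CPM (0.71 ± 0.14, adjusted p 2.90e-04). TCF3, which encodes the E-box binding proteins E12 and E47, was at 185 and 193 against 184 and 183 CPM and did not pass (adjusted p 0.78). TCF4, a related factor, was lower at 1.71 and 1.08 against 0.233 and 0.524 CPM (-1.82 ± 0.54). It passed the filter only through the untreated libraries, so its fall is a description without a p-value. Its call ended with DESeq2 (-1.84), without untreated replicate 1 (-1.48) and without clofazimine replicate 1 (-1.38).

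Regulators of the epithelial state, which in other systems hold the EMT factors down or keep epithelial splicing, divided. Of 24 listed, 13 were tested, of which 6 rose and 4 fell, at a median log2 fold change of 0.12 that was -0.05 under library totals, -0.03 without clofazimine replicate 2 and -0.01 without untreated replicate 2. The shares were 46.2% higher and 30.8% lower, against 29.5% and 30.4% over all genes tested. GRHL1, a grainyhead factor, rose from 4.51 and 7.08 to 31.2 and 24.6 CPM (2.26 ± 0.20, edgeR adjusted p 1.25e-07). Its relative GRHL3 went from 0.913 and 0.849 CPM to 0 counts in both clofazimine libraries, at least 4.10-fold lower at a floor of 3 counts per library. GRHL3 passed the filter only through the untreated libraries, so its fall is a description without a p-value, and a filter of 1 CPM removed it. ELF3, an epithelial ETS factor, rose from 36.5 and 51.7 to 184 and 166 CPM (1.99 ± 0.15, adjusted p 1.66e-08), and its relative EHF, named after its values were seen, fell from 8.44 and 14.4 to 1.09 and 0.852 CPM (-3.56 ± 0.33, adjusted p 1.78e-07). KLF5 rose from 265 and 263 to 383 and 345 CPM (0.46 ± 0.13, adjusted p 0.00464), a call that ended without untreated replicate 1 (0.45) or 2 (0.44). ELF3 shares 664 exonic bases with ELF3-AS1, which had 140 and 152 counts untreated and 80 and 69 after clofazimine. AL691482.3, on the same strand, also shares 664 exonic bases with ELF3 and had 4 and 4 counts untreated and 38 and 32 after clofazimine. Without untreated replicate 2, 3 of the list rose in place of 6.

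SNAIL, TWIST and ZEB proteins act through co-repressors and are short-lived, being marked for decay by kinases and ubiquitin ligases. Of 50 such partner and turnover genes, 49 were tested, of which 15 rose and 18 fell, at a median log2 fold change of -0.05. With 30.6% higher and 36.7% lower, the list lay near the 29.5% and 30.4% of all genes tested. SIAH1, a ubiquitin ligase, rose from 15.3 and 13.1 to 54.7 and 57.0 CPM (1.97 ± 0.14, edgeR adjusted p 7.77e-09). It shares 1793 exonic bases with LONP2 on the opposite strand, which had 1276 and 1348 counts untreated and 1056 and 1236 after clofazimine. CUL1, the scaffold of the SCF ubiquitin ligases, fell from 96.7 and 93.1 to 41.2 and 38.6 CPM (-1.25 ± 0.12, adjusted p 2.37e-07). BTRC and FBXW11, which encode the substrate receptors beta-TrCP1 and beta-TrCP2 that bring SNAIL to that ligase, were named after their values were seen and fell by 0.84 and 0.72 on the log2 scale (edgeR adjusted p 1.03e-04 and 6.61e-05). SKP1, FBXO11, FBXO45 and MDM2, turnover genes of the same list, rose by 0.42, 0.43, 0.42 and 0.42 (edgeR) and were likewise named. Each of these calls ended under library totals (0.25, 0.27, 0.26 and 0.26). Those of SKP1, FBXO45 and MDM2 also ended without untreated replicate 1 (0.40, 0.45 and 0.40) or 2 (0.41, 0.36 and 0.41). That of FBXO11 also ended with no filter (0.44), without untreated replicate 2 (0.34) and without clofazimine replicate 1 (0.29). FBXO11 shares 1785 exonic bases with MSH6 on the opposite strand, which had 3369 and 3329 counts untreated and 2449 and 2998 after clofazimine. HDAC1 and HDAC2, the histone deacetylases recruited by SNAIL, fell by 0.69 and 0.91 (adjusted p 1.58e-04 and 6.40e-06), also named after their values were seen. Other co-repressor genes rose, among them RCOR3, a CoREST scaffold, from 36.2 and 30.6 to 75.2 and 67.9 CPM (1.10 ± 0.13, adjusted p 2.50e-06), and EZH2, the methyltransferase of Polycomb complex PRC2, by 0.69 on the log2 scale (adjusted p 1.27e-04), both likewise named. LOXL2, a lysyl oxidase that binds SNAIL, fell from 489 and 596 to 405 and 313 CPM (-0.59 ± 0.15, adjusted p 0.00264), and its call ended without untreated replicate 2 (-0.46). The demethylase gene KDM1A was at 376 and 418 against 350.1 and 367 CPM and did not pass (adjusted p 0.34). Under library totals 6 of this list rose and 20 fell, with the exon length correction 19 rose and 16 fell, and 7 rose without untreated replicate 1 or 2.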

How the data were processed

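Polyadenylated RNA was sequenced from 2 untreated and 2 clofazimine libraries, and the authors deposited raw counts per gene, per the file headers. Per the submitters' processing notes, reads were handled with fastp and the build was GRCh38. The aligner, the program that made the counts and its strand setting are not given in the sources used here. Control columns were matched to titles with the word Wildtype and the same number. All 58735 identifiers were found in GENCODE 29.

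Genes were tested on the counts with edgeR 4.0.16 (R 4.3.3), quasi-likelihood, TMM scaling, filterByExpr (minimum count 10, total 15) and Benjamini-Hochberg adjustment over 16388 genes, and called at an adjusted p under 0.05. The standard error is the log2 fold change divided by the square root of F. The members and the 6 gene lists were chosen with earlier results of these data known. Besides the members, the rule named from each list the called genes with the highest and lowest fold change and the 2 most abundant others, with overlapping genes and the 3 nearest profiles. A gene that this rule names is not reported here. The pipeline was also run on simulated counts, for which no outcome is given here. Alternatives used DESeq2 1.42.0, limma 3.58.1 and an exon length trend from mgcv 1.9.3. The replicates of a group differed by more than counting noise (chi-square per degree of freedom 6.40 and 13.1). RefSeq windows on chromosome 8 were not used. Floors cover counting error only.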

Additional observations from a re-analysis of the deposited data

How the results depend on the processing

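Each of the 9 genes kept its direction where called, and its side of the threshold, under all 12 alternatives. The alternatives refit the same libraries with which the genes were chosen. They describe the dependence on processing only and are no independent support. The called log2 fold changes ranged from 0.97 to 1.27 for SNAI1, from 4.70 to 4.95 for SNAI2, from 1.03 to 1.26 for TWIST1, from -1.68 to -1.45 for CDH1 and from 0.69 to 0.99 for VIM. Values for TWIST2 (-0.03 to 0.38), ZEB1 (-0.11 to 0.19) and ZEB2 (-0.17 to 0.24) changed sign between settings and were called in none, and CDH2 lay between -0.31 and -0.01, also uncalled. Of 108 such values, 5 moved by more than the spread between replicates, all under library totals, which shifted the median of all genes from -0.03 to -0.20.

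Over all genes, library totals gave 3732 higher and 6245 lower genes in place of 4828 and 4983, so that 37.4% and not 49.2% of calls were higher. Counts within lists moved by over 1.5 times in 7 of 144 cases. Library totals gave 6 higher co-repressor and turnover genes in place of 15, and the exon length correction 5 higher epithelial adhesion genes in place of 3. Leaving out each library in turn gave 3 to 6 higher epithelial regulators, 6 to 12 lower epithelial adhesion genes, 2 to 5 lower cadherins and 7 to 15 higher co-repressor and turnover genes. With such a library left out, the lone library of its group is assumed to vary like the others.

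Same-numbered replicates did not deviate together (correlation -0.06 across genes), so the numbers are not taken to pair the libraries. With a replicate block, 4715 genes were higher and 4890 lower, and 4 of the 9 genes higher and 1 lower. The labels do not state the strand setting, and 2 libraries per group limit precision.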
